A study of Mus musculus with 13 samples.

Results

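Genes close to the home site of a Sleeping Beauty transposon were examined for the insertions they carried in F123, a mouse embryonic stem cell line of hybrid CastX129 origin. The members were 8 of 55413 annotated genes, all on mouse chromosome 6. They were the protein-coding genes Nfe2l3, Hnrnpa2b1, Cbx3, Snx10 and Skap2 and the lincRNA genes Gm26677, Gm6559 and Gm32479. A site was given to a gene when it lay inside it or within 5 kb of it, after positions within 10 bp had been merged. These genes were chosen with the positions of the sites known, so their site counts are a description and carry no test. Distances are from a home-site anchor on chromosome 6 of mm10 (GRCm38), which had been fitted to the distances in the names of the clones and lies 5 kb below the site of the clone named 5kb. The anchor lay in none of the 8 genes. Gm32479 ended 29.0 kb below it, Gm26677 and Gm6559 began 62.8 kb above it, and Skap2 began 540.5 kb above it, so "beside" covers very different distances.

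Transposons of the Sleeping Beauty family are excised from 1 place and inserted elsewhere, always into a TA, which is duplicated on either side of them. Sleeping Beauty is known to land often near the place it left. The transposons carried a T7 promoter, and T7 RNA polymerase transcribed from it outward. The labels call this in situ transcription, and by their protocol its template was purified genomic DNA, so that the RNA ran from the transposon end into the genome. Of 13 labelled samples, 12 were analysed here, and no group had a second library. The control without transposons, the pool after remobilization from the parental line (the remobilized pool) and the pool with transposons remobilized from multicopy transfected plasmids (the plasmid pool) were labelled wild type. The 9 clonal lines were labelled rad21-dTag, a degradable form of the cohesin subunit Rad21, and each is 1 clone. Every line was grown without serum in medium with LIF and the inhibitors PD0325901 and CHIR99021. The wild type libraries came from 1 sequencing run and the clones from another, so genotype and run cannot be told apart. The parental line was not analysed here. With 1 library per group, tests compare sites within a library, not conditions, and neighbouring sites may not be independent.

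Among the protein-coding members, Nfe2l3 encodes a transcription factor of the cap'n'collar basic leucine zipper family. Hnrnpa2b1 encodes a nuclear RNA-binding protein of splicing and RNA transport. Cbx3 encodes a heterochromatin protein that binds methylated histone H3 tails. Hnrnpa2b1 and Cbx3 are housekeeping genes that are transcribed away from each other, and the CpG-rich interval between their starts is known as a ubiquitous chromatin opening element. Snx10 encodes a sorting nexin of endosomes, best known from osteoclasts. Skap2 encodes an adaptor protein of immune cell signalling, and the Hoxa cluster lies beyond its start.

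Of the 8 sites of both pools that fell in annotated exons, 7 are shown first, because there the transcripts give the bases at the insertion and show what the deposited position stands for. Each line gives 30 bases of the plus strand of mm10 (GRCm38) from GENCODE M21 transcripts, with the bases at the deposited position and just before it in capitals.
Nfe2l3 at chr6:51436731-51436760: ccgagagcactgcaTAcattccatgccctt
Nfe2l3 at chr6:51457784-51457813: ggaccataggactaTAgctggctttcatgt
Hnrnpa2b1 at chr6:51463422-51463451: aggaagaagcttaaTAtctgctccttccac
Hnrnpa2b1 at chr6:51464639-51464668: cataagatatttgtTAtataaagtctattc
Snx10 at chr6:51562971-51563000: ctctccagcccaacTAtcttttcttgattg
Snx10 at chr6:51568247-51568276: gatagggtttaagaTAcagtttgtttccaa
Skap2 (plasmid pool) at chr6:51994189-51994218: ttttaacttgtttaTAtgtatttattatgg
The capitals read TA at 7 of 7 sites shown. Of the 40943 bases inside the members whose sequence the transcripts or promoter tables give, 6.44% were the A of a TA. The bases around the TA differed from site to site. The 30 bases at chr6:51464639-51464668 held 6 TA, while those at chr6:51436731-51436760 and chr6:51562971-51563000 held 1. Each 30-base sequence was found in transcripts of its own gene and of no other annotated gene. Hnrnpa2b1 and Cbx3 have processed pseudogenes, and copies outside annotated transcripts were not searched.

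The control held 1 read in all and 0 sites. The remobilized pool had 66 of its 746 sites at the members, 8.85% (95% exact Clopper-Pearson interval 6.91 to 11.1), with 332 of its 2116 placed reads. In the plasmid pool, which held 31146 sites from 63031 placed reads, 2 sites lay at the members, or 0.00642% (0.000778 to 0.0232). Intervals cover counting error only, since reads without molecular identifiers are not independent molecules. Of all annotated genes, 1.14% had at least 1 site of the remobilized pool inside or within 5 kb and 24.6% had at least 1 of the plasmid pool. All 8 members had a site of the remobilized pool by this measure, and 1 of 8, Skap2, had a site of the plasmid pool. The median over all genes was 0 sites in both pools. For each of the other 7 members, the plasmid pool allows a share of up to 0.00963% of its sites.

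**Figure D1:**
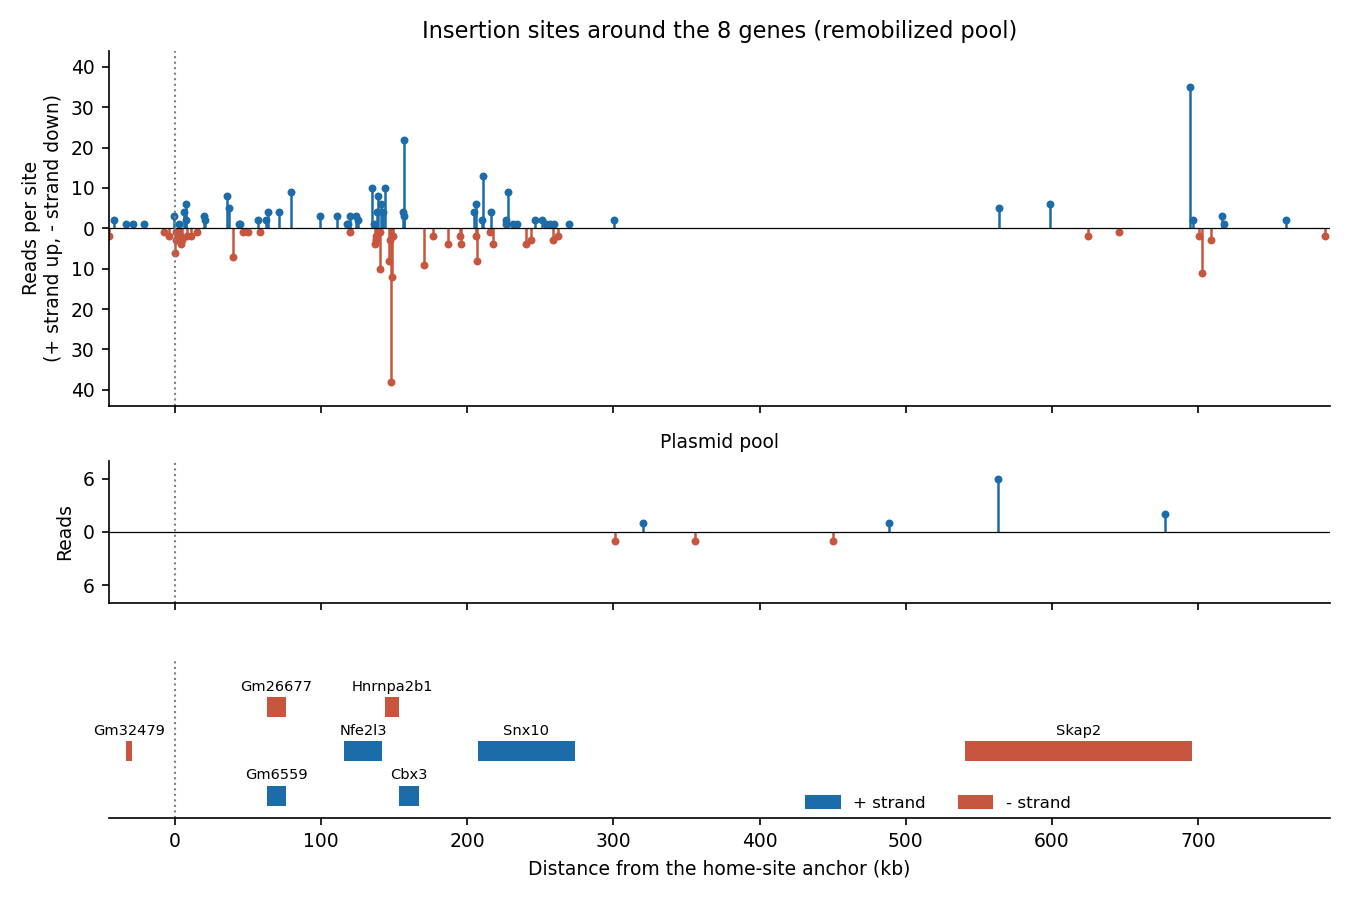
Reads per site in the remobilized pool (top) and the plasmid pool (middle) against distance from the anchor in kb, with plus-strand reads upward and minus-strand reads downward, and the 8 genes below coloured by strand. The sites crowd from the anchor to Snx10, and a stretch of 263.1 kb that runs into Skap2 has 0 sites of the remobilized pool.

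The lincRNA genes carried 2 to 5 sites each. Gm32479 (ENSMUSG00000107619.1, chr6:51283532-51287855, minus strand) had 0 sites inside and 2 in its flanks, each with 1 read, at 51283471 and 51288267. In the RefSeq model of Gm32479, which runs from 51285414 to 51308816, 2 sites lay inside and 5 inside or within 5 kb, so its count depends on the annotation. Gm26677 (ENSMUSG00000097598.1, chr6:51379710-51392777, minus strand) and Gm6559 (ENSMUSG00000107660.1, chr6:51379710-51392791, plus strand) occupy nearly the same bases on opposite strands, and every site of either was a site of both. The pair had 5 sites with 20 reads in the remobilized pool. Of these, the sites at 51380782 and 51388111, with 4 reads each, lay inside, in the first intron of both genes. The best-supported site of the pair, with 9 reads at 51396385, lay 3.61 kb above the start of Gm26677. That site also lay within 5 kb of 0610033M10Rik, a lincRNA gene that is no member.

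Nfe2l3 (ENSMUSG00000029832.16, chr6:51432670-51458768, plus strand, 115.8 to 141.9 kb from the anchor) had 21 sites and 88 reads in the remobilized pool and 0 sites in the plasmid pool. The reads per site ran from 1 to 10 with a median of 3. Inside the gene lay 17 sites, 65.1 per 100 kb of gene body, the highest body density of the 8. The second intron, 5.45 kb long, held 8 of them, and the first, 17.6 kb long, held 6. The third intron held 2 sites 34 bp apart, with 1 read at 51457111 and 10 reads at 51457145. In the first intron, the site at 51436746 with 3 reads lay in an exon of a processed transcript. The last site, at 51457799 with 6 reads, lay in the coding part of exon 4, the final exon. A run of 10 sites over 4.42 kb, from 51453383 to 51457799, was the densest 5 kb at any member, with 4 sites on the plus and 6 on the minus strand. It was picked out after the values were seen.

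Hnrnpa2b1 (ENSMUSG00000004980.16, chr6:51460932-51469894, minus strand) had 13 sites with 37.0% of the 332 reads at the members, the most of the 8 genes when flanks are counted. Inside the genes, Hnrnpa2b1 and Nfe2l3 had 63 reads each, and without its best-supported site Hnrnpa2b1 had 85 reads with flanks against 88 for Nfe2l3. A site near several genes is counted for each, so such shares add to more than the whole. It had 0 sites in the plasmid pool. Of the 13, 5 lay inside the gene, while 3 in its flanks lay inside Nfe2l3 and 3 inside Cbx3. The best-supported site of all members, at 51464654 with 38 reads, lay in the seventh intron of the principal coding transcript, and the annotated exons that cover it belong to retained-intron transcripts. At 51463437 a site with 8 reads lay in the coding part of exon 10 of 12, which is 83 bp long. The remaining sites inside Hnrnpa2b1 had 3 reads at 51464003 in the ninth intron, and 12 reads at 51465504 and 2 reads at a neighbouring site in the sixth, the latter in an exon of a retained-intron transcript. Beyond the 3′ end, the site at 51460363 had 10 reads and lay 569 bp from the end of Hnrnpa2b1.

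Cbx3 (ENSMUSG00000029836.15, chr6:51470360-51483704, plus strand) had 6 sites and 52 reads in the remobilized pool and 0 sites in the plasmid pool. The 3 inside the gene all lay in the second intron within 718 bp of one another. They had 4 reads at 51473041, 22 reads at 51473445 and 3 reads at 51473759. The others were the pair in the sixth intron of Hnrnpa2b1 and a site with 9 reads at 51487350, 3.65 kb beyond the end of Cbx3.

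**Figure D2:**
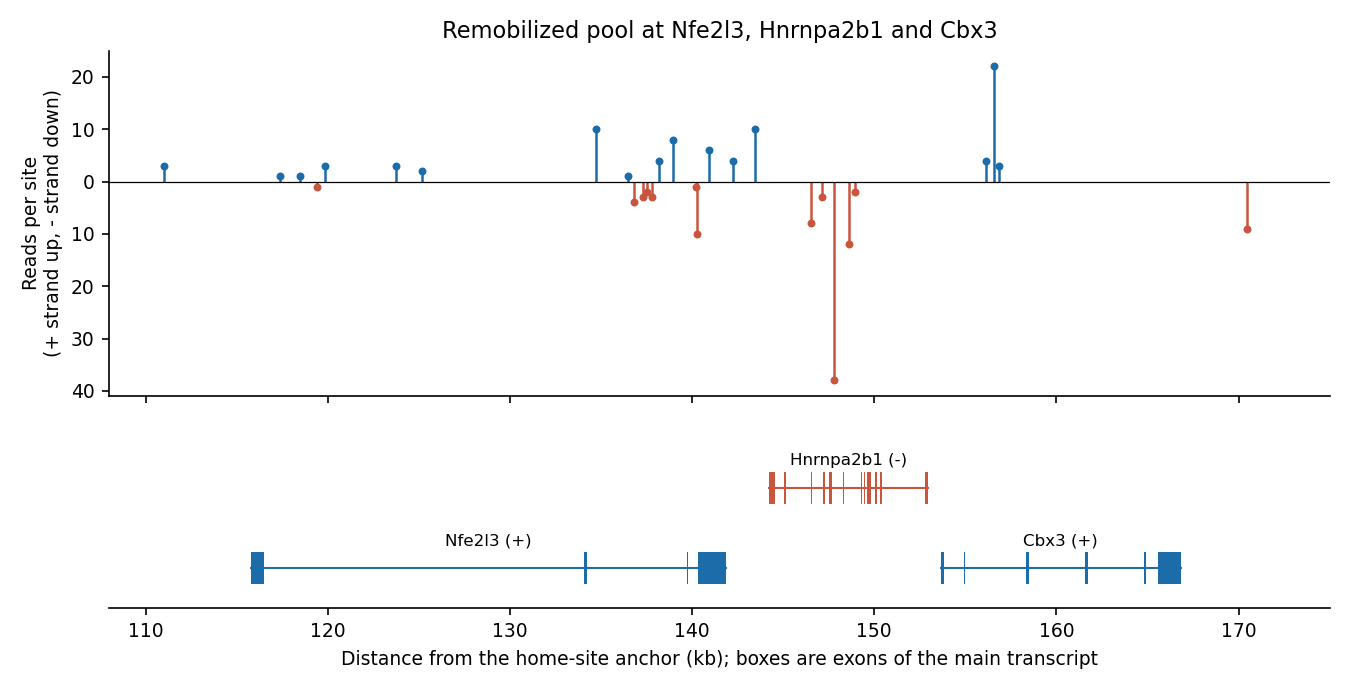
Reads per site of the remobilized pool at Nfe2l3, Hnrnpa2b1 and Cbx3 against distance from the anchor in kb, with plus-strand reads upward and minus-strand reads downward, above the exons (boxes) of the principal transcripts. The 5 sites inside Hnrnpa2b1 are on the minus strand and the 3 inside Cbx3 on the plus strand, with 7.19 kb between them that hold 0 sites.

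The annotated start sites of Hnrnpa2b1 and Cbx3 lay 466 bp apart, and neither pool had a site near them. The nearest sites of the remobilized pool were 4.05 kb into Hnrnpa2b1 and 2.68 kb into Cbx3, which leaves 7.19 kb with 0 sites of either pool. This interval was noticed in the data and has no test. Longer intervals without a site of the remobilized pool lay nearby, from 51442061 to 51451618 in Nfe2l3 and from 51473759 to 51487350 at Cbx3. The plasmid pool had 0 sites over the whole 61.0 kb of Nfe2l3, Hnrnpa2b1 and Cbx3 with their flanks. The absence of sites thus does not set these starts apart. Promoter sequences from RefSeq (GRCm38.p6, 250 bases before to 50 after a start) were matched for 7 of the 8 members, with 12 windows in all, and 0 of these 12 held a site of the remobilized pool. The same was true of all 32851 promoter windows, of which 0 held one, so the count does not set these genes apart. A window of each of this pair is printed on the strand of its gene, 5′ to 3′, with each TA in capitals, because TA is the step at which the transposon inserts.
Hnrnpa2b1, minus strand, chr6:51469845-51470144: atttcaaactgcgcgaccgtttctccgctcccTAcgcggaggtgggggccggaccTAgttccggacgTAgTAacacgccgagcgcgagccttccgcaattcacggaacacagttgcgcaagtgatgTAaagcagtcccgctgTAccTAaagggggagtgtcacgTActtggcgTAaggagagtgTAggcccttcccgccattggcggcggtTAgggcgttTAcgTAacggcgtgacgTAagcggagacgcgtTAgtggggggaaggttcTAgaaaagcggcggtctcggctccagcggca
Cbx3, plus strand, chr6:51470366-51470665: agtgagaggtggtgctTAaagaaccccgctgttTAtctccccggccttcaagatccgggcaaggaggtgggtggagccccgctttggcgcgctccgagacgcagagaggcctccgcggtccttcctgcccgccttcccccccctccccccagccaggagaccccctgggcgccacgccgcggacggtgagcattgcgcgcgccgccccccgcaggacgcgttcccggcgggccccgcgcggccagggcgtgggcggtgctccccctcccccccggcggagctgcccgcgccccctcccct
Both windows hold TA. The Hnrnpa2b1 window has 16 TA, and 79.8% of 32851 promoters have as many or fewer. The Cbx3 window has 2, with 75.3% G and C, and 5.98% of promoters have as many or fewer. A second RefSeq window of each gene has 16 TA for Hnrnpa2b1 and 4 for Cbx3, the latter with 14.5% of promoters at as many or fewer. Both Cbx3 windows belong to RefSeq starts that lie inside the GENCODE gene, and neither holds the GENCODE start from which the 466 bp were measured. The median promoter had 10 TA, and 99.1% had at least 1. TA reads the same on both strands, and a count of it in a window is a description only.

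Snx10 (ENSMUSG00000038301.15, chr6:51523901-51590679, plus strand, 207.0 to 273.8 kb from the anchor) had 24 sites in the remobilized pool, more than any other annotated gene, and 0 in the plasmid pool. It had 78 reads, from 1 to 13 per site with a median of 2, and 8 of the 24 sites had 1 read. The 20 sites inside it amounted to 29.9 per 100 kb, below Nfe2l3 with 65.1 and Hnrnpa2b1 with 55.8. Of these, 12 lay in the first intron (37983 bp), 5 in the second, 2 in the third and 1 in the fifth. The best-supported site, at 51527938 with 13 reads, lay in the first intron 4.04 kb after the start. The sites at 51562986 and 51568262, with 2 reads each, lay in exons of retained-intron transcripts, within the second intron of the principal transcript. Upstream, 4 sites lay between 2.10 kb and 446 bp before the start, with 4, 6, 2 and 8 reads from the farthest to the nearest, and 0 lay downstream.

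Skap2 (ENSMUSG00000059182.7, chr6:51857422-52012549, minus strand) was the longest member at 155.1 kb, and it alone of the 8 had sites in both pools. The remobilized pool had 6 sites and 51 reads there, and 35 of the reads were at 52011605, in the first intron 944 bp from the start. The sites farther into the gene had 5 reads at 51880660, 6 reads at 51915281, 2 reads at 51941751 and 1 read at 51962854, in introns 9, 6, 4 and 4. A site with 2 reads at 52013092 lay 543 bp upstream, inside the lincRNA gene Gm44077. The plasmid pool had 6 reads at 51880048 in intron 9 and 2 reads at 51994204 in intron 4, the latter in an exon of a retained-intron transcript. The site at 51880048 lay 612 bp from the nearest site of the remobilized pool. With its flanks, Skap2 had 3.63 sites per 100 kb in the remobilized pool, against 31.3 for Snx10.

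**Figure D3:**
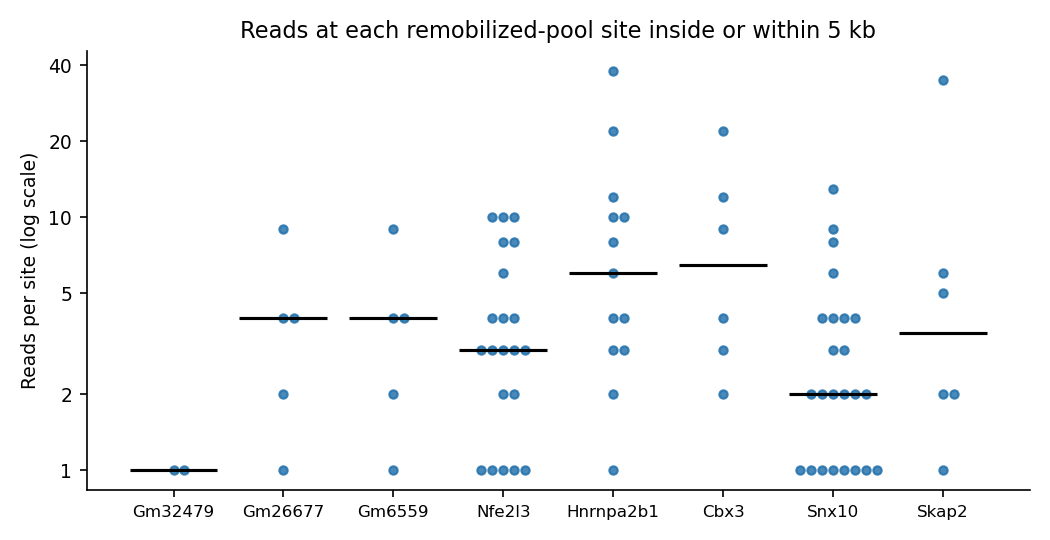
Reads at each site of the remobilized pool inside or within 5 kb of each gene, on a log scale, with the median as a line; a site near several genes is drawn at each. Most sites have fewer than 10 reads, and the highest points are 38 reads at Hnrnpa2b1 and 35 at Skap2.

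Support was uneven over the 66 sites. The median was 3 reads, 17 sites had 1 read and 8 had 10 or more. Those 8 sites held 150 of the 332 reads, or 45.2%, and the best 3 held 28.6% (23.8 to 33.8). The reads of a gene could rest on 1 site, which held 35 of 51 reads at Skap2, 22 of 52 at Cbx3 and 38 at Hnrnpa2b1. By sites, Snx10 (24) and Nfe2l3 (21) led, then Hnrnpa2b1 (13), Cbx3 and Skap2 (6 each), Gm26677 and Gm6559 (5 each) and Gm32479 (2). Beside the 5 kb limit, the site at 51465504 lay just inside that of Cbx3 at 4.86 kb from the gene. Just outside were 51455866, with 8 reads at 5.07 kb from Hnrnpa2b1, and 52017580, with 2 reads at 5.03 kb from Skap2.

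Of the 9 clones, 3 had a chromosome 6 site inside a member, and each lay in an intron. The 70kb clone had 243 reads at 51387333 on the minus strand, in the first intron of Gm26677 and of Gm6559. The 134kb clone had 1793 reads at 51451618 on the plus strand, in the second intron of Nfe2l3. The 260kb clone had 1104 reads at 51576422 on the plus strand, in the third intron of Snx10. None of the other 6 had a site at a member. The sites of the 134kb and 260kb clones recurred at the same base and strand in the remobilized pool, with 10 reads and 1 read. They were the only 2 of its 66 member sites within 10 bp of a clone site, and 0 were within 10 bp of a site of the plasmid pool. For the 70kb clone the nearest site of the remobilized pool lay 778 bp away, at 51388111 on the other strand.

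The clones also show how exact a position is. At the main base lay 94.7% (91.0 to 97.1) of the reads of the 70kb site, 99.4% (98.9 to 99.7) of the 134kb site and 99.5% (98.8 to 99.8) of the 260kb site. The remaining reads were spread over 12 positions, up to 12, 5 and 7 bp from the main base of the 3 sites. All 12 lay ahead of the main base on its own strand, above it for plus-strand sites and below it for the minus-strand site.

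The strand of the reads was then compared with the strand of the gene, a measure that did not enter the choice of genes. What the deposited strand means for the orientation of the transposon is not given in the sources used here. All 5 sites inside Hnrnpa2b1 and all 3 inside Cbx3 had the strand of their gene. In Snx10 it was 14 of 20 (70.0%, 45.7 to 88.1), in Nfe2l3 10 of 17 (58.8%, 32.9 to 81.6) and in Skap2 2 of 5. The 2 sites inside Gm26677 and Gm6559 were on the plus strand, that of Gm6559, and count once for each gene. These genes lie on opposite strands, so any shared site has to match the strand of one and oppose the other. Over all members, with those 2 sites counted for both genes, the share was 36 of 54, 66.7% (52.5 to 78.9), with 50% as reference. The share did not pass the threshold of 0.05 after adjustment (two-sided exact binomial test, raw p 0.0198, Benjamini-Hochberg adjusted p over 3 tests 0.0595). The entries of the lincRNA pair were bound to split evenly, so they could only draw the share towards 50%. The 54 are therefore not independent trials, and this interval and p carry no conclusion. Over the 5 protein-coding genes alone the share was 34 of 50, 68.0%, and passed (exact binomial test, adjusted p 0.0460). Neighbouring sites may not be independent here either. The change of call came from counting the overlapping lincRNA pair for both genes, which adds nothing on strand. Over 5 alternatives the adjusted p ran from 0.0460 to 0.231, and 3 of these also counted the pair for both genes. The 2 sites of the plasmid pool, both inside Skap2, had the opposite strand.

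**Figure D4:**
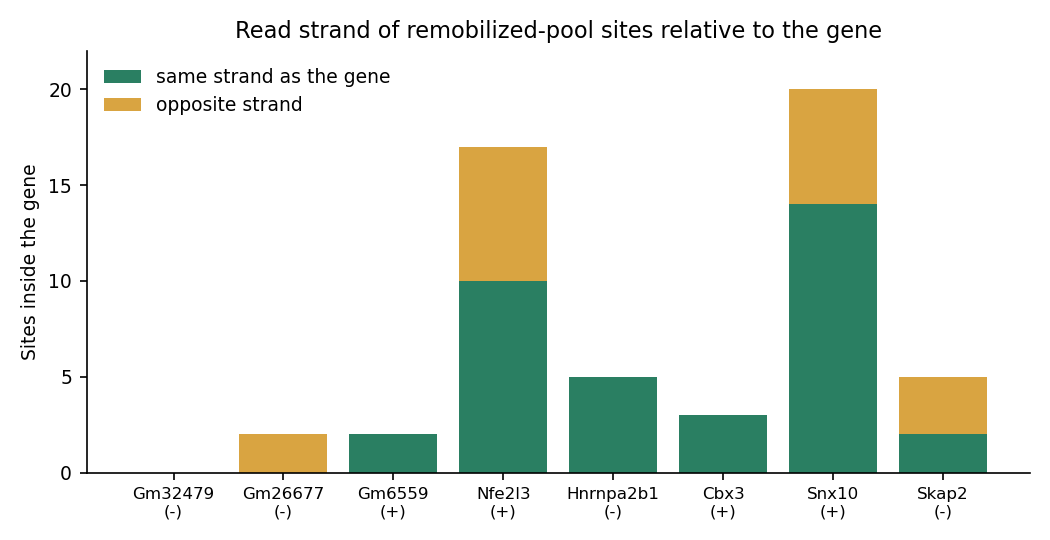
Number of sites of the remobilized pool inside each gene, split by whether the reads have the strand of the gene; the strand of each gene is in brackets. Hnrnpa2b1 and Cbx3 have 5 and 3 sites, all on the strand of the gene, and Skap2 has 2 of 5.

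The share of sites in exons did not pass the test against the share of bases in exons. Counting exons of any transcript, 7 of the same 54 lay in an exon, with an interval of the share from 5.37 to 24.9%, against 14.1% of the bases (two-sided exact binomial test, adjusted p 1). Of these 7, 2 lay in coding exons, at Nfe2l3 and Hnrnpa2b1, and the other 5 lay in exons of retained-intron or processed transcripts. With the principal transcripts alone it was 2 of 54, 3.70%, against 6.00% of the bases (exact binomial test, adjusted p 0.772). Both references pool the bases of all members and so take sites as equally dense in each gene. Exons of any transcript made up 73.5% of Hnrnpa2b1 and 7.32% of Skap2, which had 55.8 and 3.22 body sites per 100 kb. These tests therefore cannot separate exon preference from the uneven spread of sites over genes. The 54 also hold the shared sites of the lincRNA pair once for each gene, so they are not independent. Around the starts of the genes, 6 of the 66 sites lay within 1 kb of an annotated start. No share of bases near starts is set beside this count, so it is a description only.

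A window from 16.9 kb below to 783.1 kb above the anchor was divided into the members with their flanks and the rest. Gm32479 lies below this window, so the comparison holds 7 of the 8 genes. They covered 40.8% of the window and held 64 of its 104 sites in the remobilized pool, 61.5% (51.5 to 70.9). This amounted to 19.6 sites per 100 kb, against 8.44 in the rest, a ratio of 2.33 (1.54 to 3.54 from the interval of the share). In reads the ratio was 4.10, and without the 3 best-supported member sites it was 2.92. Leaving out 10 kb on each side of the anchor, which holds none of the genes, made it 3.71. The plasmid pool had 2 sites at the members and 5 in the rest, or 0.613 against 1.05 per 100 kb. Since the genes were chosen by where sites lay, none of these values was tested.

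Distance from the anchor and the genes cannot be told apart in this window. From the lower end of the window to the lincRNA pair, a stretch with the anchor and no member, the remobilized pool had 37.5 sites per 100 kb. At Gm26677 and Gm6559 it had 21.7, then 3.35 between them and Nfe2l3, 47.5 over Nfe2l3, Hnrnpa2b1 and Cbx3, 13.2 before Snx10 and 31.3 at Snx10. From there to Skap2, over 256.7 kb, there was 1 site with 2 reads, or 0.389 per 100 kb, while the plasmid pool had 5 sites there. Skap2 had 3.63 and the stretch beyond it 7.28 per 100 kb. The longest interval without a site of the remobilized pool ran 263.1 kb, from 26.8 kb beyond the end of Snx10 to 23.2 kb inside Skap2, and held 6 sites of the plasmid pool.

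**Figure D5:**
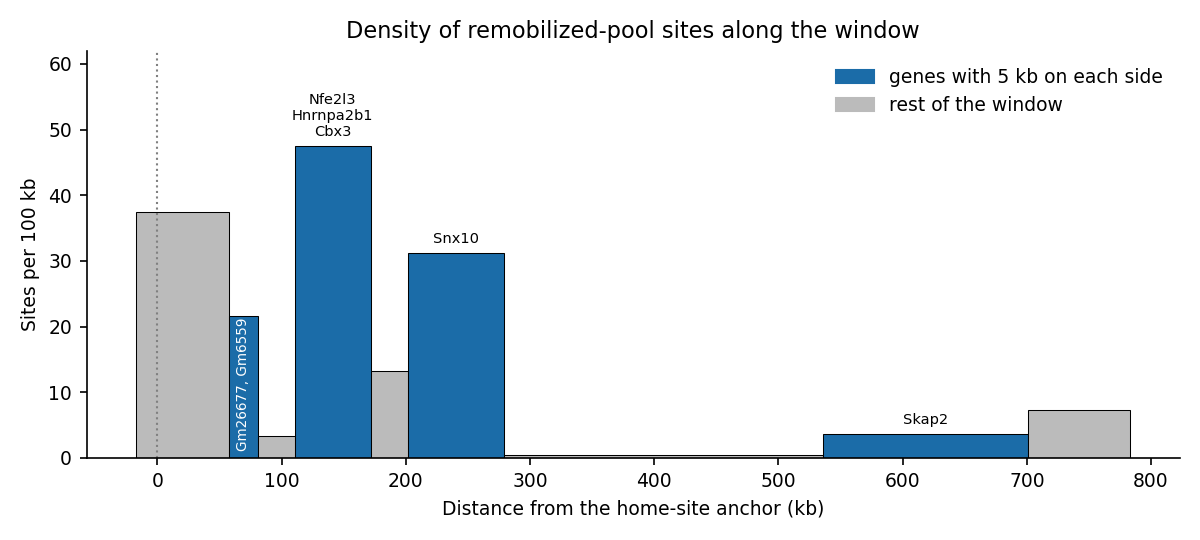
Sites of the remobilized pool per 100 kb in each stretch of the window, against distance from the anchor in kb, with the genes and their 5 kb flanks in blue and the rest in grey. Nfe2l3, Hnrnpa2b1 and Cbx3 together are the densest stretch at 47.5, and the stretch between Snx10 and Skap2 is the emptiest at 0.389.

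Sites at the members had a median of 3 reads and those in the rest of the window 2, and sites with 1 read made up 23.4% and 22.5%. Of the 64 member sites in the window 8 had 10 or more reads, and of the 40 others 1 had. The plus strand held 40 of 64 sites at the members, 62.5% (49.5 to 74.3), and 17 of 40 in the rest, 42.5% (27.0 to 59.1). The difference of 20.0 percentage points did not pass the threshold (two-sided Fisher's exact test, odds ratio 2.25, p 0.0679, adjusted p 0.102). Of 4 other annotated genes that overlap the window, 3 had a site of the remobilized pool inside or within 5 kb, namely 0610033M10Rik, the miRNA gene Gm22914 and Gm44077, and Gm38811 had 0.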

How the data were processed

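The authors deposited whole-number read counts per single-base position and strand, with no normalization, per the file contents. The build mm10 and the tools BWA, FastQC and deepTools are named in the submitters' processing notes, without roles; filters and the treatment of duplicate reads are not given in the sources used here. Reads without a position were left out.

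Positions within 10 bp on either strand were merged into 1 site at the position with the most reads, with no minimum number of reads. Nor is it given whether mates of a pair were counted separately. Coordinates are 1-based. Genes, exons and introns come from GENCODE M21; the principal transcript is the APPRIS principal one, or the one with the most exon bases. The control had 0 placed reads, and in the other libraries placed reads ran from 55 in the 55kb clone to 63031 in the plasmid pool, and the number of reads limits which insertions are seen. Exact binomial and Fisher's exact tests used scipy 1.17.1, with Benjamini-Hochberg adjustment over 3 tests and a threshold of 0.05. Merging, the assignment of sites to genes and the binomial test were tried on simulated data, and Fisher's exact test was not. The simulated counts were independent, without the shared sites or uneven densities of these data. Intervals are 95% exact Clopper-Pearson.

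All 8 members were named, and sites by these rules: the best-supported of each gene and pool, those with 10 or more reads, those in exons apart from 1, those of clones and those found in several libraries. The members, lists and rules were chosen with earlier results of these data known. The bases at intronic sites were not analysed here, since no genome sequence was used. The sequence and position of 1 exonic site are not reported here.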

Additional observations from a re-analysis of the deposited data

How the results depend on the processing

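With at least 5 reads per site, 18 of the 66 member sites of the remobilized pool and 1 of 2 in the plasmid pool were left, so these counts depend on the minimum number of reads. The other alternatives kept the former within a factor of 1.5, from 44 with positions within 1 kb merged to 72 with flanks of 10 kb. The share of window sites at the members, 61.5%, became 50% for gene bodies alone, which also cover less of the window, 72.7% without 10 kb on each side of the anchor and 73.8% in reads. The ratio of densities, 2.33, became 3.71 and 4.10 under the latter pair. Since the genes were chosen by where sites lay, its staying above 1 is no sign of stability. Orientation, 66.7%, passed the threshold at 68.0% for the 5 protein-coding genes; leaving out sites in several members gives the same 50 sites. It did not pass without merging, with positions within 1 kb merged or with at least 2 reads, where the adjusted p reached 0.231. Those 3 alternatives counted the lincRNA pair for both genes, as the 66.7% did, so their sites were not independent. The protein-coding genes alone were not tested under them. The exon share moved from below to above the share of bases with at least 2 reads per site, at 17.5%, and for the protein-coding genes, at 14%, and neither passed the threshold. That share of bases takes sites as equally dense in every gene, which they were not, so the change of side carries no conclusion. Apart from the counting of the lincRNA pair, the cause of these shifts was not tested. The difference in plus-strand share kept its direction under 3 alternatives. The median distance of the member sites was 156.3 kb from the anchor and 151.3 kb from the site of the 5kb clone. The RefSeq extent of Gm32479, the principal transcripts and the reads without the best 3 sites were chosen after seeing the data. No paired analysis was possible because every group has 1 library and all carry the same replicate number.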

Other observations

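Gm44077, a lincRNA gene that starts just beyond the start of Skap2 and is transcribed away from it, is no member but had 5 sites of the remobilized pool inside or within 5 kb, as many as Gm26677 and Gm6559. Of the 8 genes with the most sites, 7 were members and Gm44077 was the other. Of the 4 sites inside it, 52013092 had 2 reads, 52017580 had 2, 52019271 had 11 and the one farthest from Skap2 had 3, and 1 of the 4 had the strand of the gene. Its remaining site was the one with 35 reads in the first intron of Skap2. The plasmid pool had 0 sites there.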
